A study of Mus musculus with 8 samples.

Results

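The genes described here encode ATP-dependent chromatin remodellers and their subunits, in the CHD, SWI/SNF, ISWI and INO80 families, together with the ARID family of AT-rich interaction domain proteins. They were chosen by gene symbol alone, as every symbol in the deposited gene table that starts with Chd and a digit, with Smarc, with Arid and a digit, or with Ino80. The rule found 37 genes among the 14166 in the table. All but one encode proteins, and Ino80dos is an antisense RNA gene that overlaps Ino80d. The study profiled single nuclei of the dorsal telencephalon, the part of the embryonic forebrain that forms the cerebral cortex, from untreated C57BL/6J mouse embryos at E15.5. One group was wildtype (4 samples) and the other was Pantr2-/-, which lacks the long noncoding RNA gene Pantr2 (4 samples). Tissue was frozen before nuclei were isolated, and the libraries were made with the 10x Genomics 3′ version 2 kit. Counts of Pantr2 were not analysed here, so the genotype labels were not checked on that gene. How many embryos each sample holds and how the allele was made are not given in the sources used here, so the p-values measure the spread between samples, part of which may be technical.

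Chromatin remodellers use ATP to slide, evict or exchange nucleosomes. SWI/SNF complexes, called BAF in mammals, hold one of a pair of ATPases, Brg1 (Smarca4) or Brm (Smarca2), with core subunits and one member of each of several paralog families. In the developing nervous system some BAF subunits are exchanged for paralogs as progenitors become neurons, the best known being Actl6a for Actl6b, Ss18 for Ss18l1, and Phf10 and Dpf2 for Dpf1 and Dpf3. The NuRD complex combines a CHD ATPase (Chd3, Chd4 or Chd5) with histone deacetylases, ISWI complexes are built on Smarca1 or Smarca5, and mutations in several human homologues, among them CHD7, CHD8, CHD2 and ARID1B, cause neurodevelopmental disorders.

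The deposited tables held 67319 nuclei, with 7280 to 10921 nuclei and 20446698 to 34083796 unique molecular identifiers (UMIs, counted molecules) per sample, so every level is limited by counting error as well as by the spread between samples. Levels are given as CPM, the UMIs of a gene per 1000000 UMIs of the same sample and cluster. The authors assigned each nucleus to 1 of 7 numbered clusters. From marker genes, cluster 4 was apical progenitor-like (the highest mean of all clusters for 11 of its listed markers, among them Pax6, Hes5 and Sox9, and for Mki67, Top2a and Cenpf), cluster 1 was upper-layer neuron-like (Cux1, Cux2, Pou3f1 and Pou3f2), cluster 2 was subcerebral deep-layer-like (Bcl11b, Fezf2, Ldb2 and Sox5) and cluster 3 was corticothalamic-like (Tbr1, Tle4, Foxp2, Hs3st4 and Zfpm2). Not every listed marker followed these names. Mdga1 of the upper-layer list was highest in cluster 5 (320 CPM) and Crym of the subcerebral list in cluster 7 (63.1 CPM). Gad2 of the interneuron list (31.7 CPM) and Pdgfrb of the pericyte list (13.8 CPM) were highest in cluster 4. Clusters 5, 6 and 7 were left unnamed. Cluster 5 held mixed markers. It had the highest Eomes, Neurog2, Btg2, Gadd45g and Mfap4, which mark intermediate progenitors, and also the highest Rbfox3 and Dcx, which mark neurons. Its general neuron list (5 of 6 markers in the table) was 2987 to 3555 CPM, above cluster 4 (1075 to 1661 CPM), and its cycling list (3 of 3) was 55.0 to 80.7 CPM, below cluster 4 (574 to 814 CPM) and overlapping clusters 1, 2 and 3. These names were rebuilt here and may differ from the authors' own. Any pair of libraries shared 8 to 30 barcodes. The summed level of the 4 globin genes was 181 to 669 CPM in every sample and cluster, a measure of free RNA that enters all droplets.

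The promoters of 4 members are shown because these genes lead the results below. Arid5b, Chd5 and Chd1l were the members called lower in knockout samples over all nuclei. Smarca2 had the largest difference between cluster 4 and the deep-layer-like clusters among members higher in the latter. Smarca2 was also called lower in knockout samples of cluster 1. Each sequence holds the 250 bases before the start of the RefSeq transcript (build GRCm38.p6), 5′ to 3′ on the strand of the gene, with CG dinucleotides in capitals. For Chd5, the first of its starts in the table is used.
Arid5b, chr10:68278727-68278976, minus strand: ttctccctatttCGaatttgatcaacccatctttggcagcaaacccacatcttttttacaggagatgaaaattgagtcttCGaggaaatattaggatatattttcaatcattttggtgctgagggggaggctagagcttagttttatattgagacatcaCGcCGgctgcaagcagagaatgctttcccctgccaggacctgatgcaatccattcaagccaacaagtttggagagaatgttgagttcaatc
Chd5, chr4:152338401-152338650, plus strand: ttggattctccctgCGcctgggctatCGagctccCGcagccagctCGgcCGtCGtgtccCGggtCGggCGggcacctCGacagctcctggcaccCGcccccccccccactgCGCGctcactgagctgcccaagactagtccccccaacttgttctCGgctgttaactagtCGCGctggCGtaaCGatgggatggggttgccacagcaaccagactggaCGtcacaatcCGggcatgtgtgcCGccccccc
Chd1l, chr3:97610191-97610440, minus strand: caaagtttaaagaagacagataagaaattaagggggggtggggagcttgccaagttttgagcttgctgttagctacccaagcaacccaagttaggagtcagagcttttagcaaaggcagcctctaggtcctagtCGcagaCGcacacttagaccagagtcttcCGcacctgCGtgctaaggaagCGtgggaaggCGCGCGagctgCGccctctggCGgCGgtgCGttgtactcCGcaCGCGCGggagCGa
Smarca2, chr19:26604910-26605159, plus strand: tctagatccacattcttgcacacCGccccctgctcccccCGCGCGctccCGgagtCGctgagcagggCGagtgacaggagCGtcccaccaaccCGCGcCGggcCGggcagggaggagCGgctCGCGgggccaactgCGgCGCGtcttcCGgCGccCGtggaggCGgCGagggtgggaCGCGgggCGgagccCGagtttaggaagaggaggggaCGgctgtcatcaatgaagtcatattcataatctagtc
The Arid5b window held 4 CG dinucleotides, against 21 for Chd5, 17 for Chd1l and 28 for Smarca2. Over the 35 windows of the 27 members of 37 with an entry, the median was 21 CG dinucleotides, and over all 32851 windows it was 6. So most remodeller promoters were richer in CG than the typical window, and that of Arid5b was not. Of the motifs searched on both strands, the E-box CAGATG was in none of the 4 windows (14.4% of all windows), the ETS-type motif CCGGAAG was in Smarca2 (6.91% of all windows) and the TATA-box letters TATAAA were in Arid5b (12.4% of all windows). These matches describe letters only.

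Across the clusters, the remodeller genes varied to unequal degrees. Chd7 and Chd1l were far higher in cluster 4 than in the neuron-like clusters 1, 2 and 3, Chd1, Chd2, Chd6 and Ino80dos were moderately higher, and Smarca2, Smarca1 and Chd5 ran the other way. The core BAF genes Smarcb1, Smarcc1, Smarcc2 and Smarca4 stayed within a narrow range. Since the clusters were made from the expression of the same nuclei, these differences are described without a test. Of the 37 members, 34 had a mean of at least 5 CPM over the clusters, and Arid3b, Ino80c and Ino80e lay below it. Among those 34, the median ratio of the highest to the lowest cluster mean was 1.91, and 44.1% reached 2-fold. Over the 10453 genes with the same minimum, the median was 1.73 and 40.1% reached 2-fold, so the family as a whole was about as variable as other genes.

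**Figure D1:**
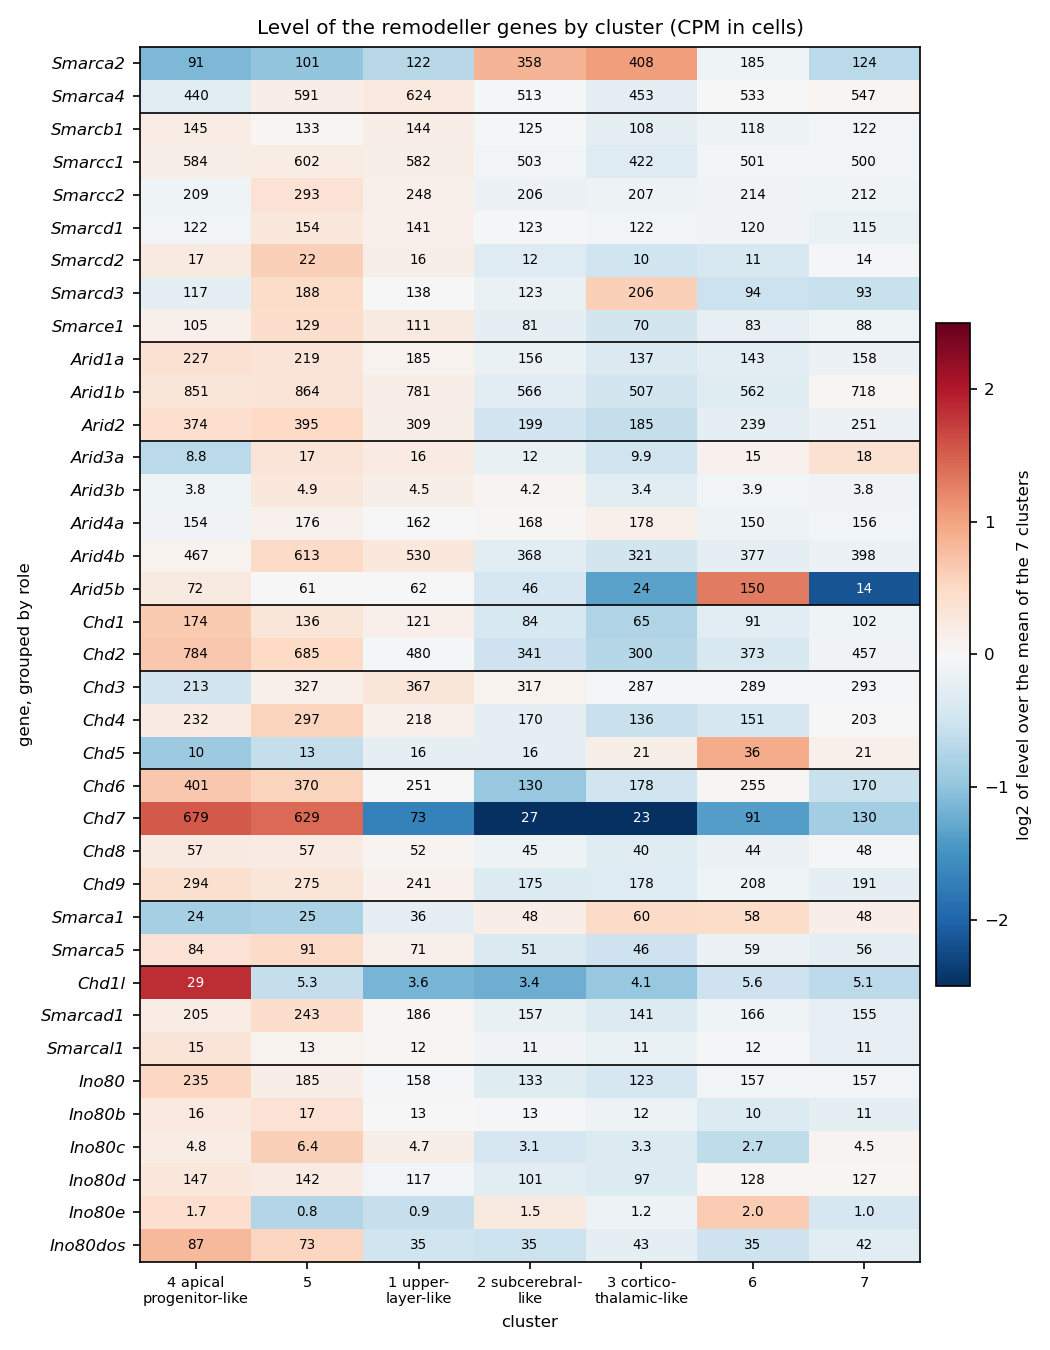
Mean level of each remodeller gene in each cluster (rows, genes grouped by role; columns, clusters 4 and 5 first; numbers, CPM, mean of 8 samples; colour, log2 of the level over the mean of the 7 clusters). Chd7 stands at 679 CPM in cluster 4 and 23.3 CPM in cluster 3, while Smarca2 stands at 90.7 and 408 CPM.

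A member was counted between 2 clusters where it differed by at least 2-fold in the same direction in each of the 8 samples. Between apical progenitor-like nuclei and upper-layer-like neurons (cluster 4 against 1), 3 of 34 members were higher (Chd7, Chd1l and Ino80dos) and none was lower, beside 10.1% and 2.83% of all genes. Against subcerebral-like neurons (cluster 2), 5 were higher (Chd7, Chd1l, Chd6, Ino80dos and Chd2) and Smarca2 was lower, beside 11.2% and 4.41% of all genes. Against corticothalamic-like neurons (cluster 3), 5 were higher (Chd7, Chd1l, Arid5b, Chd1 and Chd2) and Smarca2 was lower, beside 11.9% and 6.62%. These shares lay near the background in both directions. Against cluster 5 only Chd1l passed (higher in cluster 4; 6.55% of all genes higher and 1.39% lower), and between cluster 5 and cluster 1 only Chd7 did (higher in cluster 5; 2.66% and 0.847%).

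The scale matters for the moderate differences. The median of all genes was itself higher in cluster 4, by 0.13, 0.25 and 0.29 on the log2 scale against clusters 1, 2 and 3, and the medians of the members were 0.13, 0.39 and 0.56. Scaling the profiles by trimmed mean of M-values (TMM) factors lowered the medians of all genes by 0.19, 0.30 and 0.32. With those factors, the members past 2-fold were Chd7 and Chd1l, both higher, in each of the 3 contrasts, with Smarca2 lower against clusters 2 and 3, and Chd5 and Smarca1 also lower against cluster 3. Chd7, Chd1l and Smarca2 thus kept their place under both scalings, while Chd1, Chd2, Chd6, Arid5b and Ino80dos did not reach 2-fold in every sample with TMM factors.

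Chd7, a CHD remodeller that acts at enhancers and is the gene mutated in CHARGE syndrome, had the widest range of all members. Its median over the 8 samples (lowest to highest in parentheses) was 683 CPM (582 to 791) in cluster 4 and 651 CPM (495 to 672) in cluster 5. It was 70.3 CPM (48.1 to 100.4) in cluster 1, 27.5 CPM (17.6 to 35.6) in cluster 2 and 22.7 CPM (17.1 to 31.6) in cluster 3. Clusters 4 and 5 lay above every neuron-like value without overlap, and the log2 difference of cluster 4 from cluster 3 was 4.89 ± 0.41 (mean ± SD, n = 8 samples). Chd6 and Chd9, the close relatives of Chd7, differed less. Chd6 was 396 CPM (358 to 445) in cluster 4, 127 CPM (97.4 to 163) in cluster 2 and 182 CPM (163 to 194) in cluster 3, whereas Chd9 ranged only between means of 175 and 294 CPM. Chd8, also in this subfamily, was flatter still, between means of 40.1 and 57.2 CPM.

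Chd1l (also named Alc1), a remodeller recruited by poly(ADP-ribose) at sites of DNA damage, was high in the apical progenitor-like cluster alone among the 7. It was 29.2 CPM (18.6 to 35.7) in cluster 4. In cluster 5 it was 6.08 to 9.67 CPM in wildtype and 1.75 to 2.83 CPM in knockout samples. The log2 difference of cluster 4 from cluster 5 was 1.64 to 2.56 in wildtype and 3.11 to 4.00 in knockout samples, and that of cluster 5 from cluster 1 was 0.63 to 1.07 in wildtype and -0.46 to 0.46 in knockout samples. In clusters 1, 2 and 3 it was 3.76 CPM (1.28 to 5.49), 3.53 CPM (1.55 to 5.76) and 4.01 CPM (2.43 to 6.48). Its cluster 4 values lay above those of every other cluster without overlap. Outside cluster 4, Chd1l rested on few molecules (5 to 28 UMIs per sample in cluster 1), and the part of free RNA in these low levels was not tested.

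Chd1 and Chd2, which bind methylated histone H3 at active genes, shared a graded pattern. Chd2 was 782 CPM (712 to 830.2) in cluster 4, 685 CPM (647 to 719) in cluster 5, 478 CPM (438 to 512) in cluster 1 and 296 CPM (269 to 337) in cluster 3. Chd1 was 178 CPM (148 to 192) in cluster 4 and 64.5 CPM (60.1 to 76.0) in cluster 3. For both genes the order was cluster 4, cluster 5, then the neuron-like clusters, lowest in cluster 3. Chd2 overlaps the long noncoding RNA gene Chaserr in the deposited gene table, and the transcripts of the pair share 2628 identical bases in GENCODE M21, so its level is uncertain. Ino80dos followed the same direction, at 85.5 CPM (81.1 to 96.2) in cluster 4 and 34.6 CPM (32.9 to 39.4) in cluster 1, but it overlaps Ino80d and Ndufs1 and its reads may not be told apart from theirs. Ino80, the ATPase of its complex, went from a mean of 235 CPM in cluster 4 to 123 CPM in cluster 3, and the subunit genes Ino80b and Ino80d varied between means of 10.5 and 17.0 CPM and of 97.3 and 147 CPM.

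Smarca2 was the member with the steepest rise in the neuronal direction, and the rise depended on which neurons were compared. It was 90.5 CPM (70.6 to 105) in cluster 4 and 104 CPM (74.5 to 114) in cluster 5. In the upper-layer-like cluster 1 it was 121 CPM (83.6 to 159.6), with a median above those of clusters 4 and 5. The deep-layer-like clusters held 359.6 CPM (298 to 401) (cluster 2) and 413 CPM (347 to 453) (cluster 3). The log2 difference of cluster 4 from cluster 3 was -2.17 ± 0.19, and that from cluster 1 was -0.40 ± 0.27. The difference from cluster 1 was -0.85 to -0.26 in wildtype and -0.37 to -0.10 in knockout samples. Smarca4, the alternative ATPase, was 445 CPM (386 to 479.9) in cluster 4, 629.7 CPM (552 to 664) in cluster 1 and 454 CPM (411 to 483) in cluster 3. Smarca2 overlaps 4931403E22Rik in the deposited gene table over 9522 bases, and the strand used in counting is not given in the sources used here.

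Arid5b, a DNA-binding ARID protein that works with the histone demethylase Phf2, had its extremes outside clusters 1 to 5. It was highest in the unnamed cluster 6, at 166 CPM (75.6 to 224), and lowest in the unnamed cluster 7, at 11.6 CPM (4.94 to 30.8). Cluster 4 held 69.9 CPM (48.9 to 104) and cluster 3 held 19.8 CPM (14.6 to 40.5). The cluster 4 range of Arid5b joins separate genotype groups, which are given below. The log2 difference of cluster 4 from cluster 1 was -0.42 to 0.56 in wildtype and 0.60 to 1.16 in knockout samples. Cluster 6 was the highest and cluster 7 the lowest in each of the 8 samples. Chd5, the NuRD ATPase known as neuron-enriched, was also highest in cluster 6, at 39.2 CPM (23.7 to 48.3), and lowest in cluster 4, at 10.1 CPM (6.02 to 14.7). The genotype groups of Chd5 did not overlap in cluster 4 either. Smarca1, the ISWI ATPase Snf2l, was 23.96 CPM (17.0 to 29.7) in cluster 4 and 59.9 CPM (53.7 to 65.4) in cluster 3.

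Within paralog sets, the share of UMIs taken by each member was followed from cluster to cluster. UMIs are not corrected for gene length or capture, so a share is compared only with the same share in another cluster. Smarca2 made up a median 17.2% (13.2 to 20.4) of the Smarca2 and Smarca4 UMIs in cluster 4 and 15.3% (10.7 to 16.9) in cluster 5. In upper-layer-like neurons the share was 16.5% (11.3 to 22.4), which overlapped clusters 4 and 5. That range joins separate genotype groups, 16.6 to 22.4% in wildtype and 11.3 to 16.4% in knockout samples. The wildtype samples of cluster 1 lay above those of cluster 5 (14.0 to 15.9%) and overlapped those of cluster 4 (16.8 to 20.4%). In knockout samples cluster 1 overlapped both. The Smarca2 share was 41.6% (36.0 to 43.1) in cluster 2 and 47.4% (42.5 to 50.9) in cluster 3. All 8 samples of both deep-layer-like clusters lay above all samples of clusters 1, 4 and 5.

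The other BAF sets among the members shifted less. Smarcc2 took 26.4% (24.9 to 27.8) of the scaffold pair Smarcc1 and Smarcc2 in cluster 4 and 33.3% (30.7 to 34.3) in cluster 3. Arid1b took 78.9% (77.3 to 80.7) of Arid1a and Arid1b in cluster 4 and 78.6% (76.4 to 81.0) in cluster 3, with overlapping samples. Among Smarcd1, Smarcd2 and Smarcd3, the Smarcd3 share was 47.1% (35.8 to 55.6) in cluster 4, 49.5% (40.0 to 57.8) in cluster 2 and 60.9% (53.9 to 70.2) in cluster 3. The Smarcd3 samples of cluster 4 overlapped those of cluster 2 and those of cluster 3, and the wide spread came with the Smarcd1 share, which ran from 34.6 to 57.4% over the samples of cluster 4 alone.

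In the NuRD set, the Chd4 share was higher in clusters 4 and 5 and the Chd3 share in the neuron-like clusters. Chd4 took 51.6% (45.0 to 56.4) of the Chd3, Chd4 and Chd5 UMIs in cluster 4, 47.5% (41.4 to 50.4) in cluster 5, 36.2% (31.0 to 41.3) in cluster 1 and 30.4% (27.4 to 34.4) in cluster 3. Chd3 went the other way, from 45.6% (40.6 to 53.5) in cluster 4 to 59.9% (57.2 to 67.1) in cluster 1 and 63.9% (60.4 to 68.5) in cluster 3. Chd5 remained a minor share, 2.34% (1.41 to 3.03) in cluster 4 and 4.85% (3.49 to 6.21) in cluster 3, with its highest value of 8.13% (4.97 to 10.5) in cluster 6. The Chd5 share of cluster 4 was 2.87 to 3.03% in wildtype and 1.41 to 1.80% in knockout samples, so its range over 8 samples joins separate groups. In the ISWI pair, Smarca1 took 22.8% (16.05 to 26.5) in cluster 4, 34.2% (29.0 to 36.1) in cluster 1, 47.8% (45.1 to 53.3) in cluster 2 and 56.4% (52.4 to 60.9) in cluster 3, a stepwise order with no overlap between cluster 4 and the neuron-like clusters. GENCODE M21 holds 6 transcripts of other genes that share 2871 to 3181 aligned bases at 96.8 to 98.1% identity with Smarca5, and Smarcc1 has one such copy (1008 aligned bases at 95.2% identity) and Smarce1 has 3 (1077 to 1233 aligned bases at 97.4 to 98.9% identity). None of these is in the deposited table, so the levels of the 3 members and the shares that use Smarca5 or Smarcc1 are uncertain.

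The textbook neuronal BAF exchanges involve partner genes outside the symbol rule, and they served as a reference for the size of the shifts. Ss18l1 took 19.4% (16.7 to 23.3) of the Ss18 and Ss18l1 UMIs in cluster 4, 37.4% (35.7 to 47.2) in cluster 5 and 54.1% (49.1 to 56.9) in cluster 1. Actl6b took 70.7% (57.8 to 78.4) of Actl6a and Actl6b in cluster 4, 84.2% (78.1 to 87.2) in cluster 5 and 87.0% (82.5 to 91.1) in cluster 1. Dpf1 and Dpf3 together took 73.1% (67.6 to 75.2) of the set with Phf10 and Dpf2 in cluster 4, 79.8% (75.5 to 84.7) in cluster 1 and 93.7% (91.0 to 95.9) in cluster 3. The Ss18l1 share separated cluster 4, cluster 5 and the neuron-like clusters in that order, with no overlap of samples between cluster 4 and the rest. Over the lists of partner subunits, Ss18 alone of the 15 measured BAF partners was at least 2-fold higher in cluster 4 than in cluster 1, 2 or 3 in all samples, and Dpf3 was 2-fold lower in cluster 4 than in cluster 3. Of 8 measured ISWI partners, Baz1a, Baz1b and Baz2b were 2-fold higher in cluster 4 than in clusters 2 and 3, and of 12 NuRD partners, Hdac1 was higher than in both, and Gatad2a and Rbbp7 than in cluster 3. None of the 11 INO80 and SWR1 partners reached 2-fold in any of these contrasts.

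**Figure D2:**
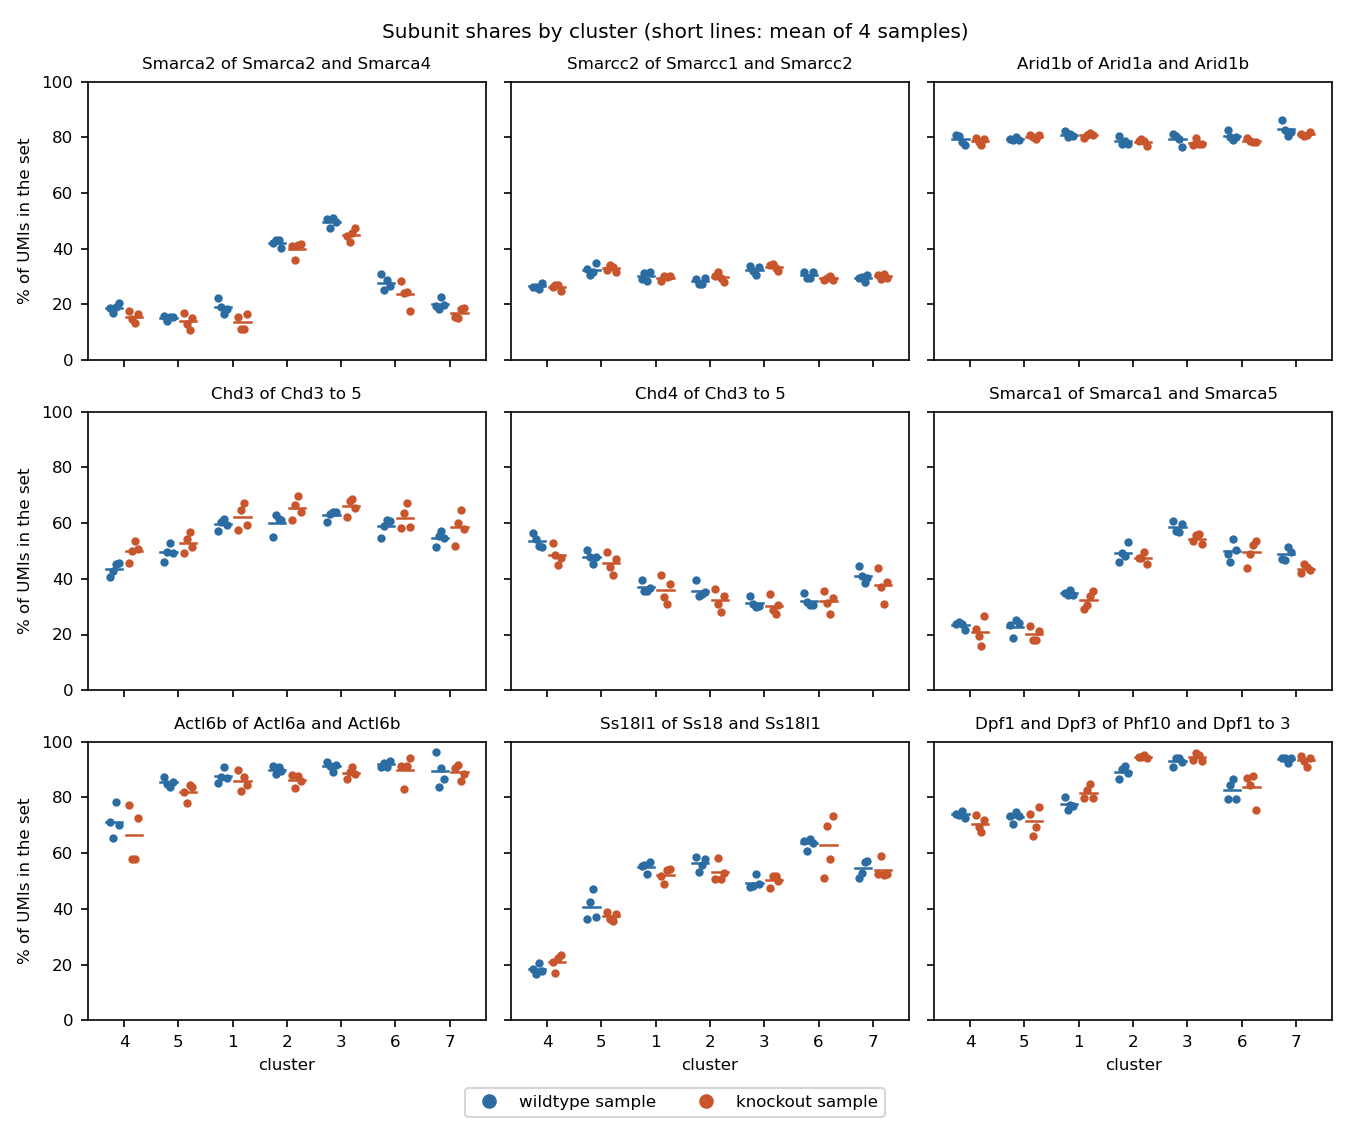
Share of UMIs within paralog sets by cluster (x axis, cluster; y axis, percent of the UMIs of the set; points, samples, wildtype blue and knockout orange; short lines, means of 4). The Smarca2 share is near 17.1% in cluster 4 and 47.3% in cluster 3, the Ss18l1 share near 19.6% and 49.9%, and the Arid1b share stays between means of 78.4% and 82.0%.

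Cluster 4 nuclei were then split by the cell cycle angle that the authors deposited, into arcs for G1 or G0, S, and G2/M. The arcs held 108 to 353, 394 to 1227 and 285 to 676 nuclei per sample. The angle itself comes from expression in the same nuclei, so no test was made. Chd7 and Smarca2 were higher in the G1 arc than in the cycling arcs, in each of the 8 samples. Chd7 was 899.5 ± 206 CPM in the G1 arc, 634 ± 82.8 CPM in the S arc and 681 ± 51.1 CPM in the G2/M arc (mean ± SD, n = 8). Smarca2 was 131 ± 23.9 CPM in the G1 arc, 87.1 ± 10.3 CPM in the S arc and 83.3 ± 17.3 CPM in the G2/M arc. The G1 arc of cluster 4 thus held more of both, although Chd7 was lower and Smarca2 higher in neuron-like nuclei.

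Of the 33 members measured in the arcs, Smarcc1 was higher in S than in G1 in all 8 samples (7.55% of all genes were), and Chd7, Smarca2 and Ino80dos were lower (4.79% of all genes). In G2/M against G1, Chd6, Chd2 and Arid1b were higher in all samples (8.62% of all genes), and Chd7, Smarca2, Smarca1, Ino80dos and Smarcad1 were lower (8.78%). These differences were small apart from those of Smarca2, Smarca1, Ino80dos and Chd7, whose mean log2 differences between G2/M and G1 were -0.66, -0.60, -0.51 and -0.37. Smarcc1, the scaffold subunit Baf155, was 537 ± 57.6 CPM in the G1 arc, 621 ± 33.6 CPM in the S arc and 540.0 ± 17.97 CPM in the G2/M arc. Chd1l, the member most limited to cluster 4, was higher in S than in G1 in 7 of 8 samples, at 21.1 ± 12.6 CPM in the G1 arc, 32.2 ± 6.48 CPM in the S arc and 26.2 ± 5.74 CPM in the G2/M arc.

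**Figure D3:**
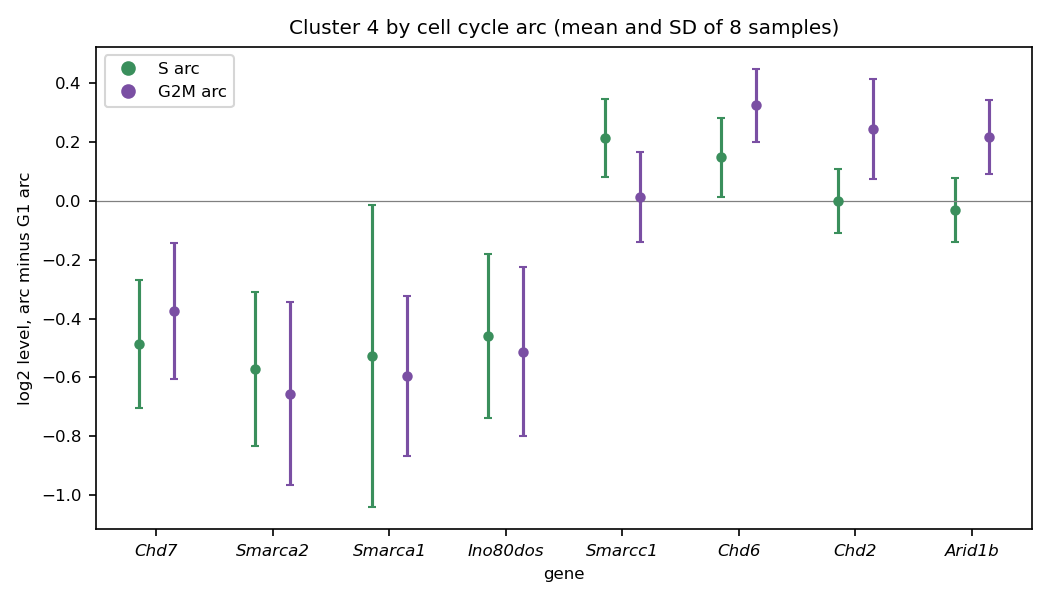
Log2 level in the S arc and in the G2/M arc minus that in the G1 arc of cluster 4 (x axis, gene; y axis, log2 difference; points, mean of 8 samples; bars, SD). Smarca2 lies at -0.57 and -0.66, Smarcc1 at 0.21 and 0.01.

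The genotype comparison asks which remodeller genes differ between Pantr2-/- and wildtype cortex, first over all nuclei of a sample and then within each cluster. Over all nuclei, 3 of the 37 members were called at an adjusted p under 0.05 by edgeR's quasi-likelihood test (Benjamini-Hochberg adjustment over all genes tested), and all were lower in knockout samples: Arid5b, Chd5 and Chd1l. Of all genes, 5.26% were called, 3.58% lower and 1.67% higher, so the count of 3 members lies close to the background. The median log2 fold change of the members was 0.04, and that of all genes was 0.000985.

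Arid5b stood at 96.6, 82.2, 60.9 and 76.6 CPM in wildtype replicates 1 to 4 and at 47.4, 32.2, 31.8 and 33.0 CPM in knockout replicates 1 to 4. Every knockout sample lay below every wildtype sample, and the highest knockout value was replicate 1. The mean was 79.1 ± 14.8 CPM in wildtype and 36.1 ± 7.54 CPM in knockout nuclei (SD, n = 4 each), with log2 fold change -1.12, SE 0.14, adjusted p 0.00234 in edgeR's quasi-likelihood test. Chd5 stood at 20.3, 23.2, 23.6 and 24.2 CPM in wildtype and 11.3, 13.7, 13.9 and 15.2 CPM in knockout replicates, again without overlap (log2 fold change -0.74, SE 0.11, adjusted p 0.00589). Chd1l stood at 11.6, 9.60, 8.56 and 9.52 CPM in wildtype and 7.23, 8.19, 6.37 and 6.16 CPM in knockout replicates (log2 fold change -0.47, SE 0.11, adjusted p 0.0428). The Chd1l groups also did not overlap, but the gap was narrow. Its call was lost on leaving out any single library other than knockout replicate 2, at adjusted p from 0.0508 to 0.137, and with a sex covariate (0.0659). With the replicate number as a block, Chd7 was also called over all nuclei, higher in knockout samples (log2 fold change 0.42, adjusted p 0.0142 with the block and 0.242 without it).

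Composition moved with genotype beside these values. The share of nuclei in cluster 6, where Arid5b and Chd5 were highest, was 9.37 to 12.7% in wildtype and 4.31 to 8.11% in knockout samples. That of cluster 4, where the mean of Chd7 was highest, was 9.69 to 20.2% in wildtype and 13.1 to 25.5% in knockout samples. The cluster 4 groups overlapped, but the share was higher in the knockout sample of every same-numbered pair. The groups also overlapped for the share of each remaining cluster. Over all nuclei, the summed level of the upper-layer list (5 of 6 markers in the table, none at 0) was 845 to 1061 CPM in wildtype and 739 to 866 CPM in knockout samples. That of the subcerebral list (5 of 5, none at 0) was 3548 to 4132 CPM in wildtype and 4462 to 5143 CPM in knockout samples. The interneuron list (6 of 8, none at 0) was 50.6 to 71.4 CPM in wildtype and 23.4 to 51.7 CPM in knockout samples, and the oligodendrocyte precursor list (4 of 4, none at 0) was 4.54 to 6.99 CPM in wildtype and 1.55 to 2.11 CPM in knockout samples. In a sum over all nuclei, fewer nuclei of a type and less RNA per nucleus cannot be told apart, and the part of these shifts in the all-nuclei results was not tested beyond the comparisons within clusters.

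**Figure D4:**
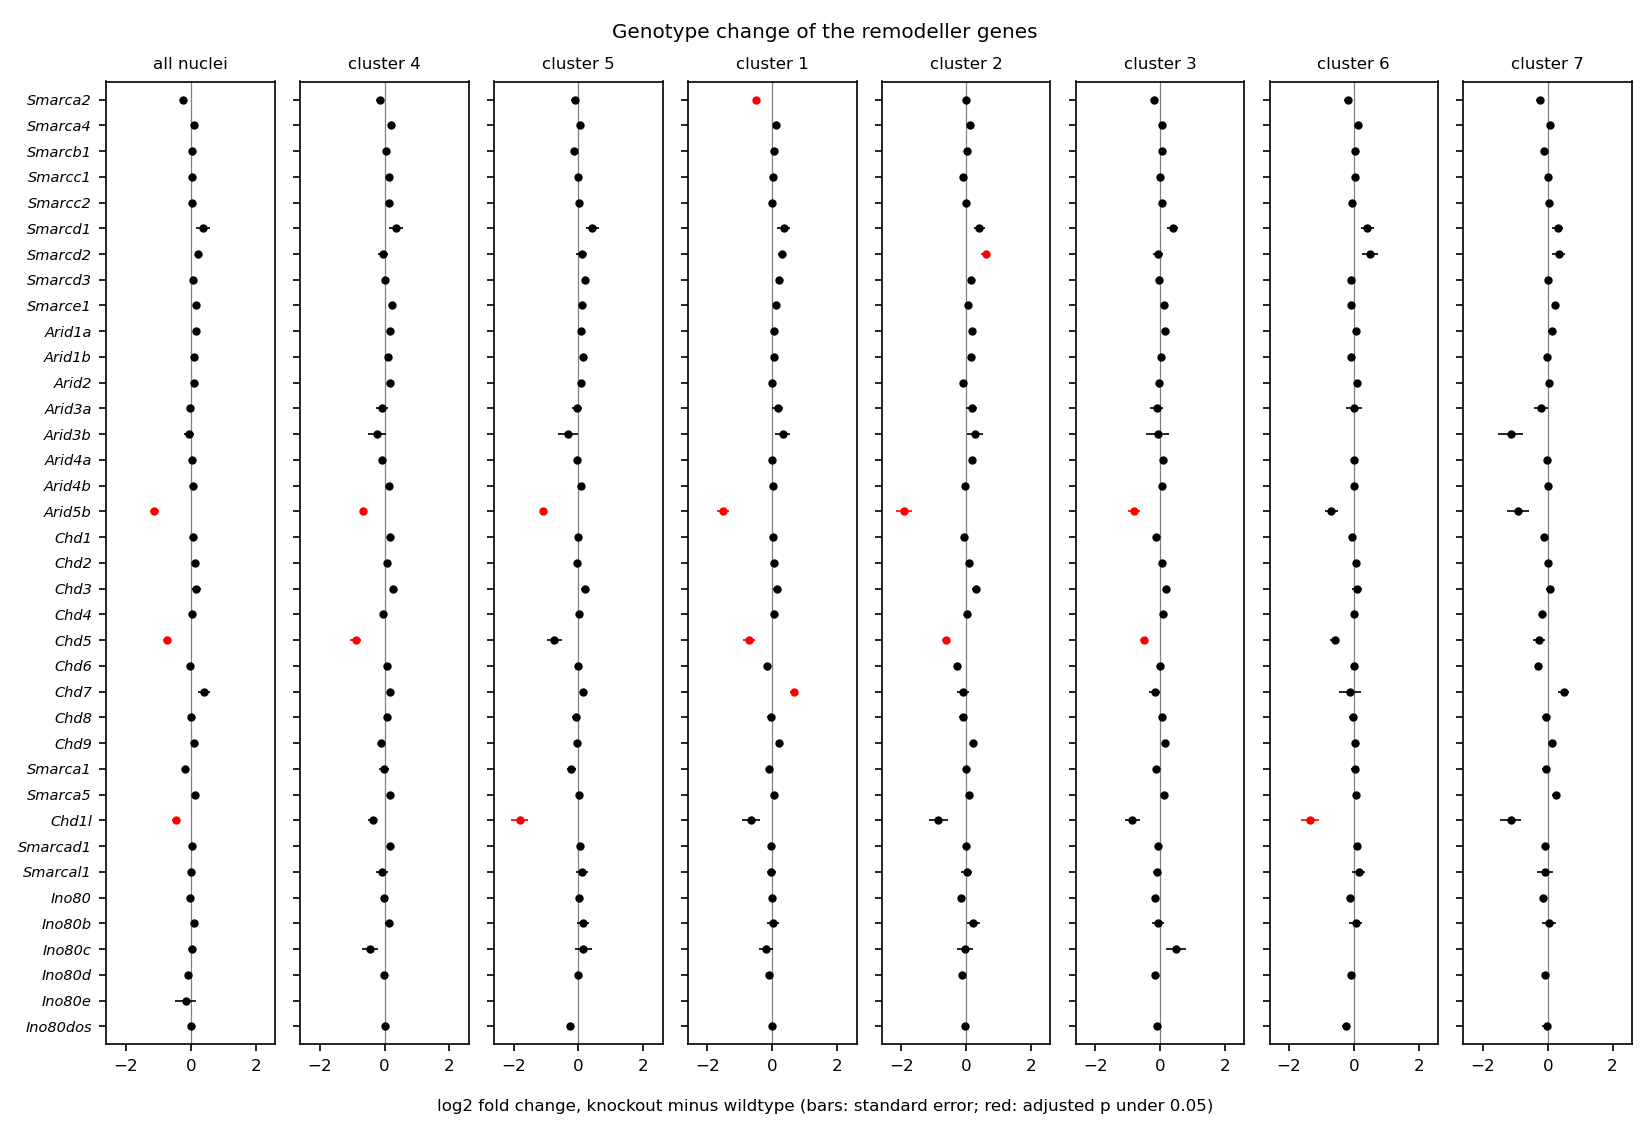
Log2 fold change between knockout and wildtype samples for every member over all nuclei and within each cluster (x axis, log2 fold change; y axis, gene; bars, standard error; red, adjusted p under 0.05; genes without a point were not tested there). Most members sit near 0, and Arid5b is at -1.92 in cluster 2.

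Within the clusters, 14 calls fell on 6 members, and Arid5b and Chd5 accounted for 9 of them, all lower in knockout samples. In cluster 1, 3 of 36 members were called lower and 1 higher (4.84% of all genes were called, 2.3% lower and 2.54% higher). In cluster 2, 2 of 36 were lower and 1 higher (9.11%, 5.19% and 3.92%). In clusters 3, 4 and 5, 2 of 36 were lower and none was higher, beside 3.36% (1.88% lower and 1.48% higher), 4.29% (3.12% and 1.17%) and 1.77% (0.906% and 0.868%) of all genes. In cluster 6, 1 of 34 was lower (0.779%, 0.428% lower and 0.352% higher), and in cluster 7, edgeR called 0 of 35 (1.03%, 0.455% and 0.578%). Over the 7 clusters together, 3.69% of all tests were called. In cluster 7, 7 of 35 members had an unadjusted p under 0.05 in edgeR's quasi-likelihood test, beside 1021 of 10548 genes tested, and DESeq2 called no member. With the replicate block, the calls within clusters numbered 23, and no call was lost. The calls added by the block were Chd9 and Smarcd3 (higher) in cluster 1, Chd3 (higher) and Chd6 (lower) in cluster 2, Chd1l (lower) in cluster 3, Arid5b and Chd5 (lower) in cluster 6, and Arid5b (lower) and Chd7 (higher) in cluster 7.

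Arid5b was called lower in 5 of the 7 clusters, and the sizes differed. In cluster 1 it stood at 117, 112, 58.2 and 83.5 CPM in wildtype replicates and 26.8, 28.3, 31.9 and 37.7 CPM in knockout replicates (log2 fold change -1.52, SE 0.18, adjusted p 0.000166 in edgeR's test). In cluster 2 it stood at 82.9, 81.0, 38.6 and 87.3 CPM in wildtype replicates and 24.8, 12.4, 18.3 and 22.7 CPM in knockout replicates (log2 fold change -1.92, SE 0.24, adjusted p 0.000266). In cluster 5 it stood at 80.6, 81.2, 87.2 and 85.2 CPM in wildtype replicates and 39.3, 33.4, 40.8 and 43.2 CPM in knockout replicates (log2 fold change -1.08, SE 0.10, adjusted p 2.8e-05). In these 3 clusters no knockout sample reached the lowest wildtype sample, and in cluster 2 the wildtype replicate 3 lay well below the other wildtype replicates. In cluster 4 the values were 104, 84.2, 85.6 and 79.9 CPM in wildtype and 59.9, 54.3, 48.9 and 57.2 CPM in knockout replicates (log2 fold change -0.66, SE 0.10, adjusted p 0.00267). In cluster 3 they were 40.5, 28.3, 19.4 and 35.9 CPM in wildtype and 16.8, 17.1, 14.6 and 20.3 CPM in knockout replicates (log2 fold change -0.80, SE 0.19, adjusted p 0.033). The groups did not overlap in cluster 4, but those of cluster 3 did. The cluster 3 call was lost on leaving out any one of wildtype replicates 1, 2 and 4 and knockout replicates 1, 2 and 3 (adjusted p 0.0531 to 0.117). In cluster 6, where Arid5b was most abundant, wildtype replicates stood at 224, 195, 167 and 165 CPM and knockout replicates at 179.9, 91.0, 106 and 75.6 CPM. There the groups overlapped through knockout replicate 1, and the difference was not called (log2 fold change -0.69, SE 0.20, adjusted p 0.224), although it was with the replicate block (adjusted p 0.00347, against 0.224 without it). In cluster 7 the block likewise gave a call that the unblocked fit did not (adjusted p 0.0174 and 0.367).

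Chd5 was called lower in 4 clusters, the 3 named neuron-like ones and the apical progenitor-like one. In cluster 4 it stood at 11.5, 13.0, 13.9 and 14.7 CPM in wildtype replicates and 6.31, 7.21, 6.02 and 8.59 CPM in knockout replicates (log2 fold change -0.89, SE 0.17, adjusted p 0.00864), on 190 and 136 UMIs in all. In cluster 2 it stood at 21.7, 17.9, 21.2 and 17.7 CPM in wildtype replicates and 13.0, 13.3, 12.4 and 12.3 CPM in knockout replicates (log2 fold change -0.62, SE 0.12, adjusted p 0.00558). Both clusters showed full separation of the groups. The groups overlapped in cluster 1 and not in cluster 3. In cluster 1 the values were 15.8, 24.3, 18.2 and 24.3 CPM in wildtype and 7.45, 13.6, 11.2 and 16.1 CPM in knockout replicates (log2 fold change -0.72, SE 0.19, adjusted p 0.0438), and in cluster 3 they were 21.0, 24.9, 27.8 and 26.5 CPM and 15.2, 17.4, 18.5 and 18.1 CPM (log2 fold change -0.51, SE 0.12, adjusted p 0.0315). The cluster 1 call was lost on leaving out any one of wildtype replicates 2, 3 and 4 and knockout replicates 1, 2 and 3 (edgeR adjusted p 0.0583 to 0.156). The cluster 3 call was lost without any single library other than wildtype replicate 1 (0.0524 to 0.0893). In cluster 5, Chd5 stood at 18.2, 16.5, 11.1 and 18.6 CPM in wildtype replicates and 5.62, 11.3, 11.9 and 8.17 CPM in knockout replicates and was not called (log2 fold change -0.75, SE 0.23, adjusted p 0.18), and in cluster 6 it stood at 40.6, 48.3, 40.7 and 43.3 CPM in wildtype replicates and 23.7, 27.8, 27.2 and 37.8 CPM in knockout replicates (adjusted p 0.089 without and 0.0389 with the replicate block).

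Chd1l was called lower in clusters 5 and 6, where it rested on few molecules. In cluster 5 it stood at 9.48, 6.08, 8.33 and 9.67 CPM in wildtype replicates and 2.16, 2.83, 2.06 and 1.75 CPM in knockout replicates, from 81 and 25 UMIs in all (log2 fold change -1.82, SE 0.28, adjusted p 0.00317 in edgeR's test). No knockout value came near the lowest wildtype value. In cluster 6 it stood at 9.77, 6.95, 7.31 and 8.30 CPM in wildtype replicates and 3.55, 3.35, 2.15 and 3.24 CPM in knockout replicates, from 91 and 19 UMIs (log2 fold change -1.34, SE 0.28, adjusted p 0.0435). That call was lost without any one of the 8 libraries (adjusted p 0.0586 to 0.175), without the filter on low counts (0.0533), with a sex covariate (0.0614) and with DESeq2 (0.154). In cluster 4, where the gene was most abundant, it stood at 33.0, 35.7, 32.7 and 30.2 CPM in wildtype replicates and 18.6, 28.0, 26.2 and 28.1 CPM in knockout replicates (log2 fold change -0.37, SE 0.14, adjusted p 0.189), which was not called. In each of the 7 clusters every knockout sample lay below every wildtype sample for Chd1l, whether the cluster was called or not. The clusters come from the same 8 libraries, and in clusters 1 and 2 the gap was narrow and rested on few UMIs. How many of all genes separate the groups like this was not counted, for Chd1l or for the other members.

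In upper-layer-like neurons, Smarca2 fell and Chd7 rose. Smarca2 stood at 159.6, 150.3, 122 and 141 CPM in wildtype replicates and 116, 83.6, 84.5 and 119 CPM in knockout replicates (log2 fold change -0.49, SE 0.11, adjusted p 0.0229), with every knockout sample below every wildtype sample. The call was lost on leaving out any one of wildtype replicates 1, 2 and 4 and knockout replicates 2 and 3 (adjusted p 0.0583 to 0.103). In the deep-layer-like clusters, where Smarca2 is most abundant, edgeR gave log2 fold change 0.01, SE 0.09, adjusted p 0.978 in cluster 2 and log2 fold change -0.19, SE 0.06, adjusted p 0.142 in cluster 3. Chd7 stood at 66.2, 66.4, 48.1 and 48.9 CPM in wildtype replicates and 95.01, 83.6, 100.4 and 74.2 CPM in knockout replicates in cluster 1 (log2 fold change 0.66, SE 0.12, adjusted p 0.00406), again without overlap. In cluster 4 Chd7 stood at 713, 685, 582 and 591 CPM in wildtype replicates and 681, 791, 756 and 629 CPM in knockout replicates (log2 fold change 0.18, SE 0.09, adjusted p 0.355), and was not called. Smarcd2, a BAF accessory subunit, was called higher in cluster 2, at 8.22, 10.7, 8.90 and 10.1 CPM in wildtype replicates and 13.3, 14.8, 16.1 and 12.6 CPM in knockout replicates (log2 fold change 0.60, SE 0.15, adjusted p 0.0189). Its call was lost on leaving out wildtype replicate 1, knockout replicate 2 or knockout replicate 3 (0.0608 to 0.0737).

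Marker levels within these clusters also differed between genotypes. In cluster 1, the subcerebral list was 2084 to 2581 CPM in wildtype and 3299 to 4610.1 CPM in knockout samples, and the upper-layer list was 1784 to 2169.8 CPM in wildtype and 1088 to 1389.6 CPM in knockout samples. In cluster 2, the upper-layer list was 474 to 649 CPM in wildtype and 468 to 513 CPM in knockout samples, and the subcerebral list was 6656 to 8049.9 CPM in wildtype and 9046 to 11032 CPM in knockout samples. The groups overlapped for the upper-layer list in cluster 2 and over all nuclei, and not in cluster 1. The apical progenitor list in cluster 4 (11 of 12 markers in the table, none at 0) was 2396 to 2949 CPM in wildtype and 2025 to 2136 CPM in knockout samples. In cluster 3, the subcerebral list was 6289 to 6821 CPM in wildtype and 6833 to 7823 CPM in knockout samples, and in cluster 6 it was 1928 to 1998 CPM in wildtype and 2427 to 2829 CPM in knockout samples. In cluster 5, the corticothalamic list (5 of 5, none at 0) was 1488 to 1602 CPM in wildtype and 1809 to 2195 CPM in knockout samples, and in cluster 2 it was 2015 to 2583 CPM in wildtype and 3282 to 3368 CPM in knockout samples.

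In every cluster other than 4, the general neuron list (none at 0) and the subcerebral list were higher in knockout samples without overlap, the general neuron list being 2425 to 2555 CPM in wildtype and 2787 to 2887 CPM in knockout samples of cluster 1. The interneuron list was lower without overlap in clusters 1, 2, 4 and 5, for example 44.5 to 73.1 CPM in wildtype and 21.9 to 34.3 CPM in knockout samples of cluster 1. The oligodendrocyte precursor list was lower without overlap in every cluster other than 6, and in cluster 4 it was 9.80 to 11.8 CPM in wildtype and 1.65 to 3.07 CPM in knockout samples. The pericyte list (3 of 3, none at 0) in cluster 4 was 25.7 to 27.8 CPM in wildtype and 8.26 to 14.0 CPM in knockout samples, and the endothelial (4 of 4) and microglial (4 of 5) lists were also lower there without overlap, at most 12.7 CPM. The Cajal-Retzius list (5 of 5, none at 0) was 57.6 to 94.5 CPM in wildtype and 115 to 138 CPM in knockout samples of cluster 5, and it was also higher without overlap in cluster 3. Over all samples, Reln alone had a mean of 96.5 CPM in cluster 5 and Pdgfrb alone 13.8 CPM in cluster 4. The Cajal-Retzius sum of cluster 5 and the pericyte sum of cluster 4 thus rest largely on 1 gene each. The upper-layer list of cluster 5 was 1365 to 1714 CPM in wildtype and 1093 to 1349.6 CPM in knockout samples. The part of these shifts in the results within clusters was not tested.

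**Figure D5:**
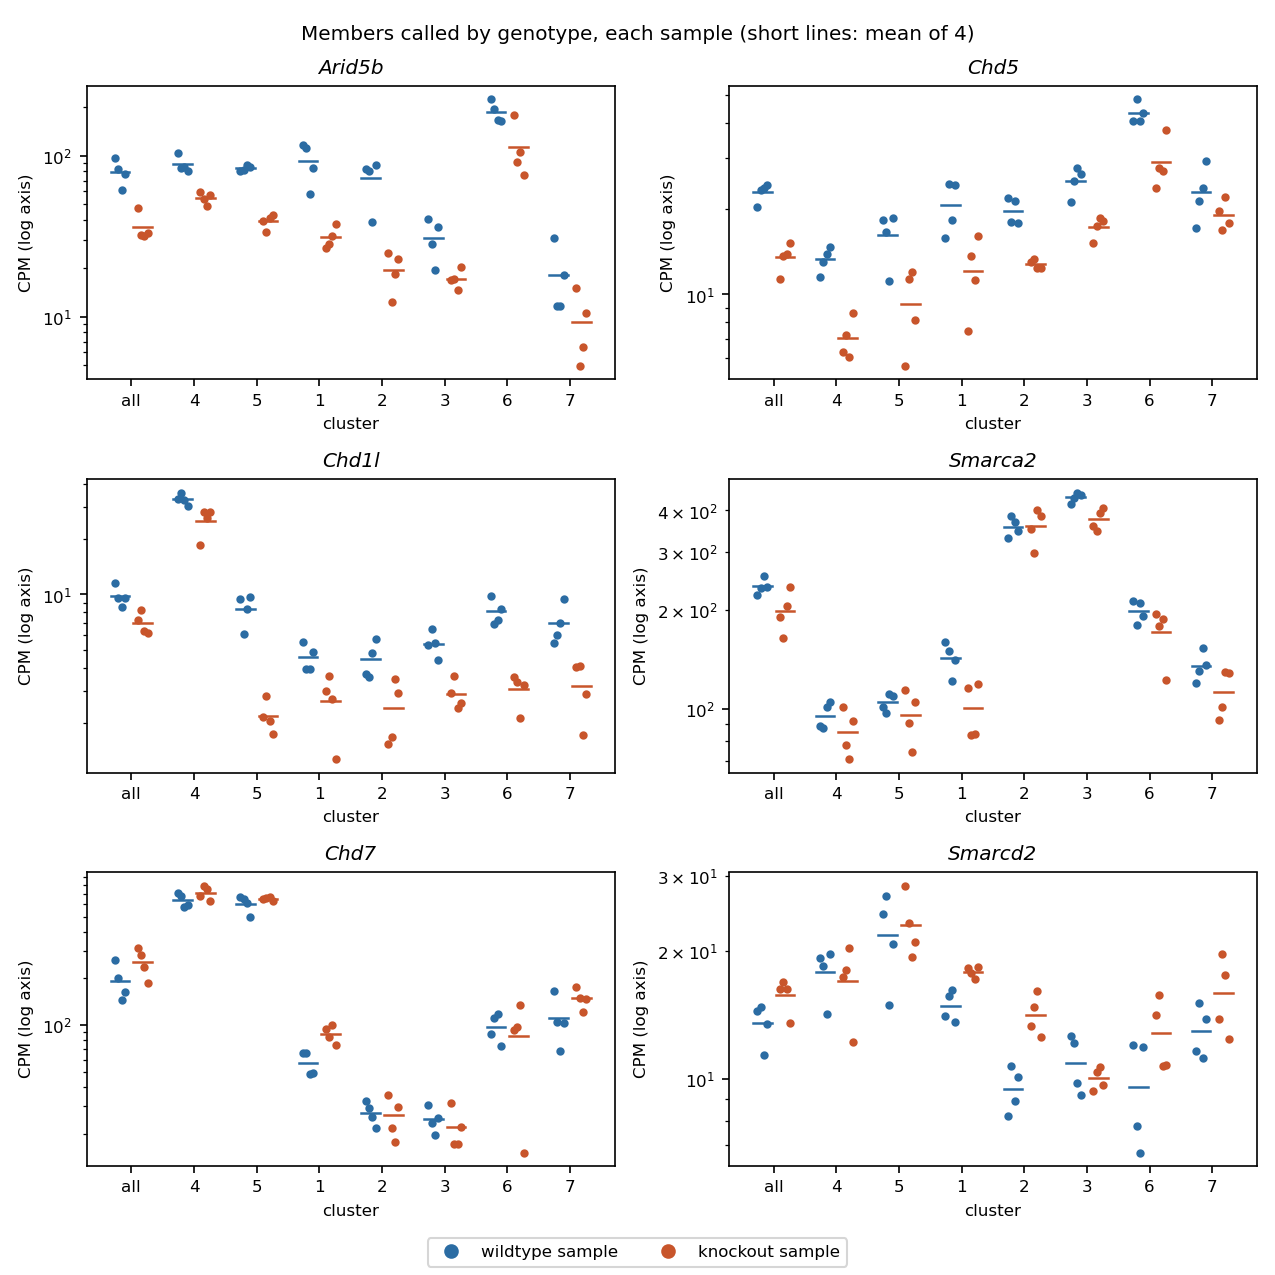
Level of the 6 members called in any genotype comparison, by cluster and over all nuclei (x axis, cluster; y axis, CPM on a log axis; points, samples, wildtype blue and knockout orange; short lines, means of 4). Arid5b is lower in the mean of knockout samples in every cluster, and Chd1l in cluster 5 goes from 8.39 to 2.20 CPM.

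Whether a genotype change differed between clusters was tested as the change in each cluster minus that in cluster 4 in edgeR's quasi-likelihood test, with the sample as a block. Over 6 such comparisons, 5 calls fell on members, and 1.33% of all tests were called. The decrease of Arid5b was larger in cluster 2 than in cluster 4 (log2 difference -1.25, SE 0.25, adjusted p 0.0125; 3.86% of all genes called) and larger in cluster 1 than in cluster 4 (-0.86, SE 0.18, adjusted p 0.0236; 1.83%). The increase of Chd7 was larger in cluster 1 (0.48, SE 0.10, adjusted p 0.0197). Chd9 also differed (0.31, SE 0.07, adjusted p 0.0449), with log2 fold changes of 0.19 in cluster 1 and -0.11 in cluster 4, neither of which was called. The decrease of Chd1l was larger in cluster 5 than in cluster 4 (-1.47, SE 0.30, adjusted p 0.0383; 0.642%). For clusters 3, 6 and 7 (1.04%, 0.135% and 0.347% of all genes), edgeR called no member. There 7 of 37, 4 of 36 and 6 of 36 members had an unadjusted p under 0.05, beside 1635 of 13115, 1165 of 12594 and 1217 of 12387 genes. Only the cluster 2 difference of Arid5b kept its call on leaving out each library in turn. That of Arid5b in cluster 1 was lost without wildtype replicate 1, 2 or 4 or knockout replicate 2 (adjusted p 0.0795 to 0.0988), that of Chd7 without wildtype replicate 1, 3 or 4 or knockout replicate 3 (0.057 to 0.104), that of Chd9 without any library other than knockout replicate 4 (0.0731 to 0.172), and that of Chd1l without any library other than wildtype replicate 2 or knockout replicate 1 (0.0701 to 0.137).

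Without the replicate block, the other 31 members were not called over all nuclei or within any cluster. Over all nuclei their log2 fold changes ran from -0.16 (Smarca1) to 0.37 (Smarcd1). Smarcd1 stood at 72.0, 116, 101 and 160.4 CPM in wildtype replicates and 121, 159.5, 176 and 120.1 CPM in knockout replicates, with a spread between samples that exceeded the difference (log2 fold change 0.37, SE 0.22, adjusted p 0.406 in edgeR's test). The major ATPases and scaffolds had small changes with narrow errors: Smarca4 (log2 fold change 0.09, SE 0.07, adjusted p 0.523), Chd4 (log2 fold change 0.04, SE 0.08, adjusted p 0.817), Arid1b (log2 fold change 0.10, SE 0.05, adjusted p 0.332) and Smarcc1 (log2 fold change 0.03, SE 0.04, adjusted p 0.754). Chd8 had log2 fold change 0.01, SE 0.07, adjusted p 0.961, and Ino80 had log2 fold change -0.03, SE 0.04, adjusted p 0.775. Those values bound the change of each gene over all nuclei and do not show that it is 0. Among partner subunits, 1 of 16 BAF partners over all nuclei was called, Dpf3, higher in knockout samples (log2 fold change 0.52, SE 0.10, adjusted p 0.0185), and in cluster 2 it stood at 90.4, 187, 163 and 115 CPM in wildtype and 378, 419.7, 440.5 and 276 CPM in knockout replicates (log2 fold change 1.46, SE 0.20, adjusted p 0.000438). Of 9 ISWI partners, Cecr2 (log2 fold change 0.41, SE 0.05, adjusted p 0.00281) and Baz1a (log2 fold change 0.43, SE 0.08, adjusted p 0.0147) were called higher over all nuclei, beside 1.67% of all genes. Within clusters, Baz1a, Baz2b and Cecr2 were called higher in cluster 4 (1.17% of all genes). Cecr2 was also called higher in clusters 1 and 2 (2.54% and 3.92%). EdgeR's test called none of the 12 NuRD and none of the 11 INO80 and SWR1 partners over all nuclei. Of them, 3 and 1 had an unadjusted p under 0.05 in that test, beside 2666 of 13926 genes. DESeq2 called 2 and 0 of them, beside 1217 of 14165 genes.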

How the data were processed

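Nuclei from 8 samples of E15.5 mouse dorsal telencephalon (4 wildtype, 4 Pantr2-/-) were analysed from the deposited tables. UMI counts per gene and nucleus were made with kallisto, bustools and mm10, per the submitters' processing notes; their versions and whether strand was used in counting are not given in the sources used here. The deposited doublet score was at most 0.5 in every nucleus, so no doublet caller was run. Cluster numbers and cell cycle angles were used as the authors deposited them. The members and the gene lists were chosen with earlier results of these data known.

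UMIs were summed per sample and cluster and tested with edgeR 4.0.16 in R 4.3.3 (TMM, filterByExpr, quasi-likelihood test, limma 3.58.1, Benjamini-Hochberg adjustment over all genes tested, threshold 0.05). The scripts were tested on simulated data. Alternatives were RLE size factors, no filter on low counts, DESeq2 1.42.0, a sex covariate from Xist UMIs (above 0 in 3 wildtype and 2 knockout libraries), the replicate block and leaving out each library. All libraries carried 1 library date. Levels between clusters were also scaled with TMM factors, thinned to 1400 UMIs per nucleus and taken from wildtype samples alone. Same-numbered samples deviated together from their group means (correlations over genes of 0.398, 0.185, 0.192 and 0.179, all over 0.1). The replicate numbers in the labels were therefore taken to pair the samples. Some pairs with different numbers also passed 0.1. These were wildtype replicate 3 with knockout replicate 4 (0.287), wildtype 2 with knockout 3 (0.167) and wildtype 1 with knockout 2 (0.113). The threshold thus does not single out same-numbered pairs.

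Per-sample values were given mainly for members called in any genotype comparison. The 10 with the widest range over clusters and those of the paralog sets were otherwise given by medians, ranges or shares. Some other members appear only in the figures and in counts. Clusters were named where at least 3 listed markers were highest there, and cluster 5, with both intermediate progenitor and neuron markers, was left unnamed. One upper-layer marker is not reported here, and the upper-layer sums leave it out. Near-identical copies (at least 95% identity over 100 bases) were sought among GENCODE M21 transcripts with blastn 2.17.0. The genome build of the deposited gene table is not named in it, so none of its coordinates is printed. Its coordinates served to find overlapping genes and to count neighbours within 5 Mb. Promoter windows are from RefSeq (GRCm38.p6, 27 of 37 members matched).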

Additional observations from a re-analysis of the deposited data

Results flagged for a closer look

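The values below held a sample set apart from the others by more than Dixon's 95% critical value. Chance gives this in about 1 in 20 groups. The Arid5b samples were set apart within a group of 4 samples, and the Chd1l sample only over all 8 samples. Other values in the text, such as subunit shares, may pass as well, so this is not a full list. Over all nuclei, Arid5b was 47.4 CPM in knockout replicate 1, against 31.8 to 33.0 CPM in the other knockout replicates, and still below every wildtype sample. In cluster 2, Arid5b was 38.6 CPM in wildtype replicate 3, against 81.0 to 87.3 CPM in the other wildtype replicates, and still above every knockout sample. The log2 ratio of Chd1l between cluster 4 and cluster 1 was 4.46 in knockout replicate 4, against 2.59 to 3.27 in the other samples of both groups. In that knockout sample, cluster 1 held 5 Chd1l UMIs.

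The genotype change differed between clusters for 4 members by the edgeR test of the difference itself. For Arid5b, the change in cluster 1 minus that in cluster 4 was -0.86 on the log2 scale, and for cluster 2 it was -1.25. For Chd7 and Chd9, the change in cluster 1 minus that in cluster 4 was 0.48 and 0.31. For Chd1l, the change in cluster 5 minus that in cluster 4 was -1.47, on the few UMIs given with it.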

How the results depend on the processing

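Over 13 alternatives, 10 of the 17 genotype calls on members were kept in each: Arid5b over all nuclei and in clusters 1, 2, 4 and 5, Chd5 over all nuclei and in clusters 2 and 4, Chd7 in cluster 1 and Chd1l in cluster 5. No call on a member reversed. With the replicate number as a block for the pairing, the calls within clusters rose from 14 to 23 and those over all nuclei from 3 to 4, and no call on a member was lost. No block was added to the differences between clusters, whose fit already has a term for each sample. On leaving out each library in turn, the members called numbered 2 to 3 over all nuclei, 8 to 16 within clusters and 1 to 5 for differences between clusters (5 with all libraries). Within clusters the count was 9 without wildtype replicate 2 and 8 without knockout replicate 2 or 3. For differences between clusters it was 1 without wildtype replicate 1 or 4, 2 without wildtype replicate 3, knockout replicate 2 or knockout replicate 3, and 3 without wildtype replicate 2. With a sex covariate the calls of Chd5 in cluster 3 (adjusted p 0.0506), of Chd1l over all nuclei (0.0659) and of Chd1l in cluster 6 (0.0614) were lost.

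For cluster 4 against cluster 2, the members past 2-fold in every sample numbered 6, which became 3 with TMM factors. For cluster 4 against cluster 3 they numbered 6, which became 15 at 1.5-fold. For cluster 5 against cluster 1 the count was 1, which became 2 at 1.5-fold or in wildtype samples alone. Without single libraries these counts were 3 to 3 (cluster 4 against 1), 6 to 6 (against 2), 6 to 7 (against 3), 1 to 1 (against 5) and 1 to 1 (cluster 5 against 1). Thinning moved each subunit share of clusters 1 and 4 by less than its SD over samples.

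Counts over all genes that moved by more than 1.5 times were as follows. Over all nuclei 732 genes were called, 1217 with DESeq2, 1363 with the block and 263 to 994 without single libraries (362 without wildtype replicate 4, 286 and 263 without knockout replicates 2 and 3). With the block, 643 in place of 400 were called in cluster 3, 264 in place of 82 in cluster 6 and 255 in place of 109 in cluster 7. Without single libraries the lowest counts were 335 of 564 in cluster 1, 192 in cluster 3, 315 of 512 in cluster 4, 101 of 188 in cluster 5, 51 in cluster 6 (the highest there was 148, without knockout replicate 1) and 63 in cluster 7. For the differences from cluster 4 they were 62 of 236 in cluster 1, 218 of 500 in cluster 2, 61 of 136 in cluster 3, 21 of 79 in cluster 5, 4 to 67 around 17 in cluster 6 and 19 to 78 around 43 in cluster 7. The cause of these moves was not tested. Among the called members, Chd1l, Chd5 and Smarcd2 had the lowest levels.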

Other observations

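For each member called in a genotype comparison, the genes within 5 Mb on each side were counted in the comparison over all nuclei, with a window chosen after the data were seen. Around Chd1l, 18 of 104 neighbours tested (17.3%) were called, against 5.26% of all genes. Around Smarca2 the count was 4 of 42 (9.52%), around Arid5b 2 of 26 (7.69%), around Smarcd2 4 of 117 (3.42%) and around Chd7 1 of 31 (3.23%). Around Chd5, edgeR called 0 of 116. The cause of the share around Chd1l was not tested.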
